A study of Canis lupus familiaris with 12 samples.

Results

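Gene expression was compared between Mi/CMM1 cells exposed to robenacoxib and Mi/CMM1 cells exposed to piroxicam. Mi/CMM1 is a cell line from an oral melanoma of a dog, and messenger RNA was measured on Agilent 1-colour (Cy3) dog arrays. The comparison takes the 3 arrays titled robenacoxib and the 3 titled piroxicam, 6 of the 12 arrays of the series. The other arrays hold untreated cells (3 arrays, with no vehicle named) and cells given carprofen (3 arrays), which enter here as background levels and for the estimate of spread. Both drugs are labelled as given at their half-maximal inhibitory concentration. Robenacoxib is at 156 µM in all labels. For piroxicam the labels conflict: 116 µM stands in the sample labels and in the series design, and 779 µM in the treatment protocol. The same 2 doses stand exchanged for carprofen, 779 µM in the former and 116 µM in the latter. For both drugs compared here the exposure is 6 h in the former and 24 h in the latter. Which version is right was not settled, and under both versions the molar dose was not the same for the 2 drugs, so the differences below are between the 2 treatments as given and not between the compounds at matched dose. The series design calls the 3 replicates of a condition biological, without details on separate cultures, so the p-values measure the spread between these arrays. The cells are 1 line from 1 tumour source, without the other cells of a tumour.

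Both drugs are nonsteroidal anti-inflammatory drugs that block cyclooxygenases, the enzymes that turn arachidonic acid into the precursor of all prostaglandins. Cyclooxygenase 1, encoded by PTGS1, is made constitutively in many tissues, and cyclooxygenase 2, encoded by PTGS2, is induced by growth factors, cytokines and stress. Piroxicam is an oxicam that blocks both enzymes, and robenacoxib is a phenylacetic acid derivative made for dogs and cats that is selective for cyclooxygenase 2. Prostaglandin E2 acts through receptors encoded by the PTGER genes, and canine oral melanomas are among the tumours in which cyclooxygenase 2 has been studied as a drug target.

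The array carries 43603 distinct probes. Tests covered the 31998 that exceeded background clearly in every array of 1 or more of the 4 groups. Only 1313 probes (3.01%) could be named, with 832 gene symbols, and 614 named genes had a tested probe. On the 6 arrays, 66.2% to 75.9% of the spots were well above background, lowest on piroxicam 3. Arrays of robenacoxib correlated with each other at 0.9951 to 0.9964 across probes, arrays of piroxicam at 0.9946 to 0.9965, and arrays of different drugs at 0.9930 to 0.9958. All 3 robenacoxib arrays and piroxicam 3 were on slide 3, while piroxicam 1 and 2 were on slide 2 and the untreated arrays on slide 1, so that the untreated cells shared no slide with either drug. Of the melanocyte lineage markers, MITF and SLC45A2 were well above background on 6 of 6 arrays, MC1R on 2, KIT on 1, and TYR and EDNRB on 0, and 8 others have no named probe. The B cell marker MS4A1 and the endothelial receptor KDR were above background on 0 of 6 arrays, while CD4, CD8A, VWF, CLDN3, COL1A1, COL1A2, PDGFRB and DCN were above it on 6 of 6.

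A level below is the log2 of a probe's signal minus the 75th percentile of its array, and a difference is the robenacoxib mean minus the piroxicam mean on that scale, with its standard error (SE). Adjusted p-values are two-sided limma values with Benjamini-Hochberg adjustment over the 31998 probes, and a probe is called where this value was below 0.05. With 3 arrays a drug, the median SE was 0.0526.

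Expression differed widely between the 2 treatments, and mostly by little. Probes called higher with robenacoxib numbered 4381 (13.7%) and probes called lower 4321 (13.5%), together 8702 or 27.2% of those tested. The median size of a called difference was 0.22. At a fold of at least 1.5, 485 probes (1.52%) were higher and 211 (0.659%) lower. At a fold of at least 2, 82 probes rose and 22 fell, and 20 and 16 of these exceeded background on all 6 arrays. Among the probes above background on all 6 arrays, 29.7% were called in either direction. Among the 614 named genes, 53 were called higher (8.63%) and 97 lower (15.8%), or 24.4% in either direction, close to the share of all probes. The 2 groups of arrays did not overlap for 51 of the 53 and 96 of the 97. The same held for 8649 of the 8702 called probes, so the called named genes do not stand out in this. Over all tested probes, called or not, the groups did not overlap for 41.9%, 20.8% higher and 21.1% lower.

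The direction of a small difference depended on the scale. When the arrays were aligned on the transcripts spiked in during labelling instead of the 75th percentile, the median difference moved up by 0.13. Over all tested probes it was 0.00 as scaled here and 0.13 on the other scale, where 10691 probes were called higher against 1136 lower. The share of called probes that were higher was 50.3% as scaled here and 90.4% with the spiked-in transcripts. A gene named as lower below is therefore lower relative to its array as a whole. COL1A1, TIMP1 and SPCS2, called lower by 0.12, 0.12 and 0.10 here, stood at 0.01, 0.01 and 0.03 on the other scale.

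**Figure D1:**
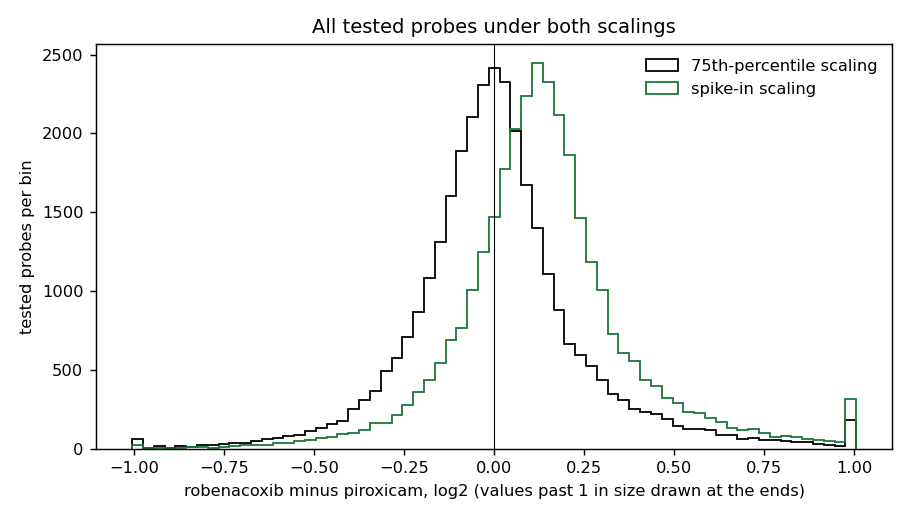
Histogram of the log2 difference, robenacoxib minus piroxicam, of all tested probes, with the number of probes per bin on the vertical axis. The curve for scaling to the 75th percentile is centred at 0.00, and the curve for scaling to the spiked-in transcripts at 0.13. Values past 1 in size are drawn at the ends.

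Since slide and drug partly coincide, the comparison was also made with slide as a block, where it rests on the 3 robenacoxib arrays against piroxicam 3 alone. In that fit 3293 probes (10.3%) were higher and 2572 (8.04%) lower, together 18.3% of those tested. All 8702 called probes had the same sign as before. For the 8649 of them without overlap between the drugs, the block could not change the sign. Their robenacoxib arrays all lie on the same side of piroxicam 3. The shared sign is therefore no test of slide for these probes. The call held for 5021 of the 8702 (57.7%), and 844 probes were called in the block fit alone. Among named genes, 39 were higher and 64 lower with the block. Within slide 3 and without the other arrays, 2 residual degrees of freedom left 0 probes called (0%), with a lowest limma adjusted p of 0.0758 and 7883 probes at an unadjusted p below 0.05. Every call named below is absent from that last fit, and values with the block are given where they end a call.

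The untreated mean lay between the means of the 2 drugs for 58.5% of the called probes, against 33.2% of all tested probes. Called probes were selected for a wide gap between these same means. A wide gap takes in the untreated mean more often, so the 2 shares cannot show an opposite action of the drugs. Slide 1 held the untreated arrays and neither drug, so that position and slide cannot be told apart. Among the named genes the untreated mean lay between the drugs for 25 of the 53 higher and 61 of the 97 lower. It lay below both drugs for 12 and 19 of them and above both for 16 and 17.

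Of the prostaglandin-forming enzymes, PTGS2 was the one called. Its level was -3.66, -3.70 and -3.81 on the piroxicam arrays and -2.98, -2.86 and -2.95 on the robenacoxib arrays. The 2 groups were far apart, and the untreated arrays, at -3.23 ± 0.05 (mean ± SD, n = 3), stood between them. Expressed as a fold, PTGS2 was 1.73 times higher with robenacoxib (difference 0.79, SE 0.05, adjusted p = 6.04e-06). The block for slide gave 0.88 (SE 0.05, adjusted p = 2.80e-04), and all other fits gave 0.57 to 0.93.

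PTGS1 was dim and uneven. Piroxicam arrays 1 and 2 were at -6.56 and -6.21 and the third at -3.92, while robenacoxib arrays were at -5.47, -5.53 and -6.12. The groups overlapped, and the difference of -0.15 (95% confidence interval -1.47 to 1.18, adjusted p = 0.891) was not called. It was 0.68 (adjusted p = 0.128) without piroxicam 3, and -1.79 (adjusted p = 0.0107) with the block for slide, where piroxicam 3 is the only piroxicam array compared. PTGES, an inducible synthase of prostaglandin E2, differed by -0.08 (-0.33 to 0.16). PTGDS, a synthase of prostaglandin D2, differed by -0.27 (-1.29 to 0.76). The fifth enzyme with a tested probe, the phospholipase PLA2G1B, differed by 0.11 (-0.20 to 0.42). Over the 5, 1 was called higher and 0 lower, against 27.2% called of all probes. Their median was -0.08 against 0.00 for all probes.

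Among receptors, PTGER2 and PTGFR were called in opposite directions. PTGER2, a prostaglandin E2 receptor that raises cyclic AMP, stood at -6.37, -6.79 and -7.02 with piroxicam and at -5.93, -5.93 and -6.03 with robenacoxib. The groups did not overlap, but only 1 of the 3 piroxicam arrays was well above background. The difference of 0.77 (SE 0.16, adjusted p = 0.00602) became 0.36 and 0.15 after normexp correction of the median signals and 0.28 in the authors' deposited values, where it was not called (adjusted p = 0.155, 0.183 and 0.17).

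PTGFR, the receptor for prostaglandin F2 alpha, was at -3.30, -3.25 and -3.23 with piroxicam and at -3.49, -3.46 and -3.56 with robenacoxib. It was 1.18-fold lower with robenacoxib (-0.24, SE 0.04, adjusted p = 0.00222), and both drugs stood above the untreated level of -3.72 ± 0.01. The call was lost with both normexp corrections (-0.06 and -0.15), with spiked-in scaling (-0.11) and in the authors' values (-0.18), at adjusted p of 0.617, 0.0895, 0.0854 and 0.0947. PTGER4, the other receptor of this kind tested, differed by 0.13 (0.03 to 0.23, adjusted p = 0.0557) and passed without piroxicam 3 (0.16, adjusted p = 0.0388). It also passed with array weights (0.16), among probes above background on all 6 arrays (0.13) and with spiked-in scaling (0.26). The adjusted p there was 0.0227, 0.0465 and 0.00321, and the remaining fits did not call PTGER4. The transporter SLCO2A1 and the prostaglandin D2 receptor PTGDR2 were not called, at -0.14 and -0.08. Of the 5 receptor and transport genes, 1 was higher and 1 lower, against 27.2% called of all probes, with a median of -0.08.

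The named genes with the largest differences came from many pathways. TGM1, the transglutaminase that cross-links the outer envelope of skin cells, stood at -4.08, -3.90 and -4.04 with piroxicam and at -3.26, -3.17 and -3.20 with robenacoxib. It was 1.74-fold higher with robenacoxib (0.80, SE 0.07, adjusted p = 3.61e-05), and the untreated mean of -3.39 lay between the drugs. HGFAC, a protease that activates hepatocyte growth factor, was at -6.27, -5.98 and -6.25 against -5.29, -5.49 and -5.34. Its difference was also 0.80 (SE 0.10, adjusted p = 5.13e-04), with 2 of the 3 piroxicam arrays above background, and it fell to 0.25 with normexp and quantile normalization and to 0.35 in the authors' deposited values, still called.

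The lens crystallins CRYGS and CRYBA1 were higher with robenacoxib by 0.55 (SE 0.06) and 0.48 (SE 0.07), at adjusted p of 1.60e-04 and 0.00136. CRYGS arrays were at -3.91, -3.79 and -3.95 with piroxicam and at -3.23, -3.41 and -3.37 with robenacoxib, with the untreated mean of -3.76 near piroxicam. The second CRYBA1 probe also differed by 0.48 but was not called (adjusted p = 0.126). HTR2B, a serotonin receptor, rose in order from untreated cells (-5.29 ± 0.04) over piroxicam (-4.84, -4.97 and -4.82) to robenacoxib (-4.60, -4.35 and -4.38). Its difference between the drugs was 0.43 (SE 0.07, adjusted p = 0.00122), lost after normexp with the 75th percentile (0.38, adjusted p = 0.0625) and in the authors' values (0.36, adjusted p = 0.0573). It was the 1 called of 10 tested serotonin and catecholamine genes, whose median was -0.07, against 27.2% called of all probes. With slide as a block, where piroxicam 3 is the only piroxicam array compared, 3 were called higher, against 10.3% of all probes. The added ones were HTR1A (1.70, adjusted p = 0.0455) and MAOB (2.0, adjusted p = 0.00437), named after their values were seen. Neither was called without the block.

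ABCC5, a pump for cyclic nucleotides and drug conjugates, was at 0.62, 0.58 and 0.67 with piroxicam and at 1.01, 1.0 and 1.0 with robenacoxib. The robenacoxib arrays were nearly equal and lay well above the others, and the untreated mean was 0.66. The difference was 0.38 (SE 0.03, adjusted p = 6.87e-05), and 3 of 3 probes were called higher. SLC3A1, the heavy chain of a transporter for cystine and basic amino acids, was higher by 0.35 (SE 0.05, adjusted p = 9.00e-04) on its brighter probe and by 0.56 on the other. LATS1, a kinase of the Hippo growth-control pathway, differed by 0.27 (SE 0.05, adjusted p = 0.00331) on 1 of 2 probes and by 0.15 with slide as a block, as piroxicam 3 at -0.98 was nearer to robenacoxib than piroxicam 1 and 2 at -1.19 and -1.14.

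IFNA7, one of a family of closely similar interferon genes that a probe may not separate, stood at 0.49, 0.49 and 0.41 with piroxicam and at 0.71, 0.91 and 0.75 with robenacoxib. Its difference of 0.33 (SE 0.09, adjusted p = 0.0182) was not called without robenacoxib 2 (0.27, adjusted p = 0.0662) or without piroxicam 3 (0.30, adjusted p = 0.0614). CLCN1, the chloride channel of skeletal muscle, was at -4.80, -4.46 and -5.18 against -4.12, -4.09 and -4.36. That difference of 0.63 (SE 0.20, adjusted p = 0.0429) kept its call only without piroxicam 2 among the 6 fits that leave out 1 array, and the others gave 0.44 to 0.71 at adjusted p of 0.0533 to 0.133. It was also lost after normexp with the 75th percentile (0.46, adjusted p = 0.0856), and the block for slide gave 0.99 (adjusted p = 0.0338).

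**Figure D2:**
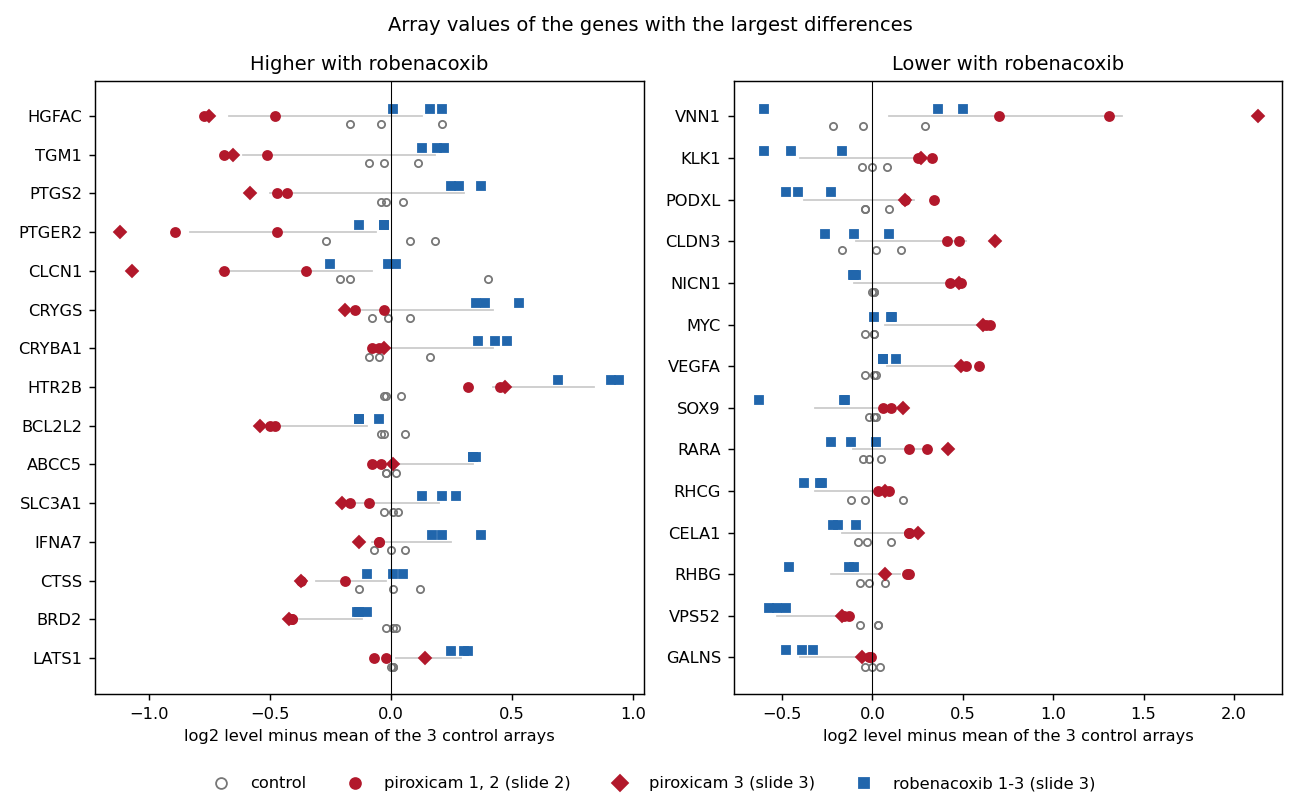
Level on each array, as log2 minus the mean of the 3 control arrays, for the named genes with the largest called differences whose arrays do not overlap, 15 higher and 14 lower with robenacoxib. Open circles are control, red circles piroxicam 1 and 2 on slide 2, red diamonds piroxicam 3 on slide 3, blue squares robenacoxib, and grey lines join the means of the 2 drugs. In every row the blue and red symbols are apart, and for PTGS2 and TGM1 they lie on opposite sides of the control.

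Growth genes moved in both directions. MYC, a transcription factor that drives growth and division, stood at 1.11, 1.09 and 1.07 on the piroxicam arrays and at 0.47, 0.56 and 0.57 on the robenacoxib arrays. Robenacoxib arrays lay near the untreated level of 0.46 ± 0.03, and all piroxicam arrays lay above it. MYC was 1.47-fold lower with robenacoxib (-0.56, SE 0.03, adjusted p = 6.02e-06), -0.54 under the block for slide (adjusted p = 9.36e-04), and between -0.61 and -0.43 over all fits.

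CCND1, the cyclin that opens the G1 phase, was at 3.17, 3.15 and 3.21 with piroxicam and at 2.92, 2.89 and 2.96 with robenacoxib. The piroxicam arrays were close to the untreated mean of 3.14, and the difference was -0.25 (SE 0.03, adjusted p = 1.78e-04). MDM2, a ubiquitin ligase, was higher with robenacoxib by 0.18 (SE 0.03, adjusted p = 0.00352). CDKN1B, an inhibitor of cyclin-dependent kinases, was higher by 0.13 (adjusted p = 0.0268), but the block for slide gave 0.08 (adjusted p = 0.287). Its call was also lost without robenacoxib 1 or 3 or piroxicam 1 or 2 (0.10 to 0.13, adjusted p = 0.0599 to 0.0891), after normexp (0.15 and 0.11) and in the authors' values (0.12), at adjusted p of 0.145, 0.247 and 0.263. CCNB3, a cyclin of meiosis, differed by 0.03 (-0.06 to 0.11). Of these 4 tested cell cycle genes, 2 were called higher and 1 lower, against 27.2% called of all probes, with a median of 0.08.

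NR4A1, an immediate early nuclear receptor, had overlapping arrays: -5.04, -5.38 and -5.47 with piroxicam and -5.16, -4.39 and -4.35 with robenacoxib. The difference of 0.66 (SE 0.21, adjusted p = 0.0439) had a p of 0.106 with slide as a block, and of 0.11 to 0.14 without robenacoxib 2 or 3 or piroxicam 2 or 3. The call was also lost with quantile normalization (0.66, adjusted p = 0.0588), after normexp (0.50 and 0.36, adjusted p = 0.0751 and 0.0506), in the authors' values (0.55, adjusted p = 0.0669) and with array weights (0.55, adjusted p = 0.0584). FOSB, the third immediate early gene tested, differed by -0.29 (-0.64 to 0.07).

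Among growth factors, VEGFA, the main growth factor of blood vessels, had 2 probes that were both called lower with robenacoxib. On the brighter one the level was 3.91, 3.84 and 3.81 with piroxicam and 3.38, 3.38 and 3.45 with robenacoxib. The robenacoxib arrays were close to the untreated 3.32 ± 0.03. This probe differed by -0.45 (SE 0.04, 1.36-fold lower, adjusted p = 4.78e-05) and the other by -0.92 (adjusted p = 5.72e-06). KITLG, the ligand of the KIT receptor that melanocytes depend on, was at 0.82, 0.87 and 0.76 against 1.06, 1.03 and 1.0. It was higher with robenacoxib by 0.21 (SE 0.04, adjusted p = 0.00335). These were the 2 called of 6 tested growth factors, against 27.2% called of all probes.

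The other hypoxia-linked genes with a tested probe were not called. ADM (adrenomedullin) differed by -0.03 (-0.10 to 0.03), VHL by -0.03 (-0.15 to 0.10) and GAPDH, a glycolytic enzyme read on the brightest of 7 probes, by 0.04 (-0.12 to 0.20). VEGFA was thus the only called gene among these 4, against 27.2% called of all probes.

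Of the BCL2 family, the survival genes BCL2L2, MCL1 and BCL2 were called higher with robenacoxib and BAX lower. BAD, BAK1 and BCL2L1 were not called. BCL2L2, which protects cells from apoptosis, was at -2.68, -2.66 and -2.72 with piroxicam and at -2.23, -2.31 and -2.31 with robenacoxib. Robenacoxib arrays lay near the untreated -2.18 ± 0.06 and piroxicam arrays below it. The difference was 0.40 (SE 0.04, adjusted p = 5.79e-05).

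MCL1, a short-lived survival protein, was at 2.67, 2.59 and 2.63 against 2.87, 2.83 and 2.93, a difference of 0.25 (SE 0.04, adjusted p = 0.00187). BCL2 itself was at 0.68, 0.70 and 0.70 against 0.94, 0.93 and 0.86, a difference of 0.22 (SE 0.04, adjusted p = 0.00164). For both, the piroxicam arrays stood at the untreated level, 2.62 ± 0.02 for MCL1 and 0.72 ± 0.03 for BCL2. BAX, which permeabilises mitochondria and was chosen for mention after its values were seen, was lower with robenacoxib on 2 of 2 probes, by -0.22 (SE 0.04, adjusted p = 0.00275) on the brighter.

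CASP8, an initiator caspase also chosen after its values were seen, was higher by 0.18 (adjusted p = 0.0334), while the block for slide gave 0.22 (adjusted p = 0.1). BIRC5 (survivin), an inhibitor of apoptosis made in dividing cells, was at 2.96, 3.03 and 3.00 against 2.84, 2.90 and 2.75. Its difference of -0.16 (adjusted p = 0.0151) was -0.17 with the block, not called, and had a p of 0.0533 without piroxicam 2. It stood at -0.03 (adjusted p = 0.636) with spiked-in scaling. The call was also lost after normexp with quantile normalization (-0.12), in the authors' values (-0.12) and in the 6 arrays alone (-0.16). The adjusted p there was 0.0909, 0.101 and 0.0729. CASP9 differed by -0.10 (-0.18 to -0.02, adjusted p = 0.0673) and DIABLO by -0.02 (-0.08 to 0.04). In all, 4 of 11 tested apoptosis genes were called higher and 2 lower, against 13.7% and 13.5% of all probes. Their median was -0.04.

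HSP70, as the RefSeq table names an inducible heat shock protein of the HSPA1 type, was called lower with robenacoxib on 4 of 4 probes. Levels on the brightest were 3.24, 3.22 and 3.24 with piroxicam and 3.00, 2.91 and 2.98 with robenacoxib. Both drugs stood above the untreated 2.86 ± 0.05, piroxicam by more. The difference was -0.27 (SE 0.04, adjusted p = 5.45e-04), and -0.19 and -0.17 after normexp and -0.16 in the authors' values, where it was not called (adjusted p = 0.0784, 0.0722 and 0.0888). Near-identical copies of this gene may share its probes. HSPA4, a related protein that exchanges nucleotides on HSP70, was higher by 0.17 (SE 0.04, adjusted p = 0.00873), with a p of 0.101 under the block. The small heat shock proteins HSPB1 and HSPB8 differed by -0.02 and -0.05 and were not called.

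Among the genes lower with robenacoxib, NICN1, a subunit of the complex that adds glutamates to tubulin, stood at -2.19, -2.13 and -2.14 with piroxicam and at -2.73, -2.71 and -2.72 with robenacoxib. The untreated arrays were at -2.62 ± 0.01, between the drugs and nearer to robenacoxib. The difference was -0.57 (SE 0.03, 1.48-fold, adjusted p = 4.24e-06).

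CLDN3, a tight-junction protein, was at -2.88, -2.81 and -2.61 against -3.55, -3.39 and -3.20 (difference -0.61, SE 0.14, adjusted p = 0.00903). PODXL, a surface sialomucin, was at -2.73, -2.57 and -2.73 against -3.32, -3.39 and -3.14 (difference -0.61, SE 0.09, adjusted p = 0.00105). KLK1, a kallikrein that releases kinins and has close relatives, was at -0.77, -0.69 and -0.75 against -1.47, -1.62 and -1.19 on its brighter probe (difference -0.69, SE 0.12, adjusted p = 0.00209).

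The arrays of these 3 genes did not overlap between drugs, and each untreated mean (-3.29, -2.91 and -1.02) lay between. The second KLK1 probe differed by 0.06 and was not called, and the mean of both gave -0.31 (adjusted p = 0.0168). After normexp with the 75th percentile CLDN3 stood at -0.37 and PODXL at -0.39, both still called. Of 9 tested epithelial genes, 2 were called higher (TGM1 and TJP1) and 2 lower (CLDN3 and AMN, the latter chosen after its values were seen). Their median was 0.06, and 27.2% of all probes were called. TJP1, a scaffold of tight junctions, was higher by 0.14 (SE 0.02, adjusted p = 0.00145), but by 0.08 (adjusted p = 0.116) on the mean of its 2 probes. AMN, which anchors the vitamin B12 receptor, was lower by -0.13 (adjusted p = 0.0493) as scaled here and stood at 0.01 with spiked-in scaling, and the block for slide gave -0.11 (adjusted p = 0.0731).

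VNN1, an enzyme that recycles vitamin B5, had the largest difference of any called named gene and the widest spread. Its arrays were at -4.91, -5.52 and -4.09 with piroxicam and at -5.86, -6.82 and -5.72 with robenacoxib. The difference of -1.29 (SE 0.37, adjusted p = 0.0283) ranged from -2.05 with slide as a block to -0.32 after normexp. It was not called without robenacoxib 2 (-0.95), piroxicam 1 (-1.33) or piroxicam 3 (-0.91), at adjusted p of 0.0901, 0.0639 and 0.081. The call was also lost after normexp with the 75th percentile, with quantile normalization (-1.21), in the authors' values (-0.79) and in the 6 arrays alone (-1.29). The adjusted p there was 0.209, 0.0787, 0.0647 and 0.122.

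SOX9, a transcription factor of neural crest and cartilage, was at -0.44, -0.40 and -0.33 against -0.66, -1.13 and -0.65. Robenacoxib 2 was far below the other arrays. The difference of -0.43 (SE 0.12, adjusted p = 0.0228) had a p of 0.0945 with the block, 0.0538 without piroxicam 2 and 0.0716 without piroxicam 3. Without robenacoxib 2 it was -0.27 (adjusted p = 0.015), and the call was lost after normexp with the 75th percentile (-0.36), with spiked-in scaling (-0.30) and in the authors' values (-0.39), at adjusted p of 0.0629, 0.0558 and 0.0539. RHBG and RHCG, ammonia channels of kidney and other epithelia, were each lower, with a difference of -0.38 (SE 0.09 and 0.07, adjusted p = 0.0127 and 0.00386). RHBG lost its call with the block (-0.30, adjusted p = 0.174). After normexp with the 75th percentile RHBG stood at -0.07 (adjusted p = 0.542) and RHCG at -0.01 (adjusted p = 0.963).

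CELA1, an elastase, was lower by -0.38 (SE 0.06, adjusted p = 0.00102) on 1 of 3 probes, and by -0.05 (adjusted p = 0.539) on the mean of the 3. GJA1 (connexin 43), which forms gap junctions, was at -1.77, -1.78 and -1.88 against -2.15, -2.15 and -2.10 (difference -0.32, SE 0.07, adjusted p = 0.00679). Its call was lost after normexp (-0.18 and -0.23), with spiked-in scaling (-0.19) and in the authors' values (-0.25), at adjusted p of 0.205, 0.0612, 0.072 and 0.0813.

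**Figure D3:**
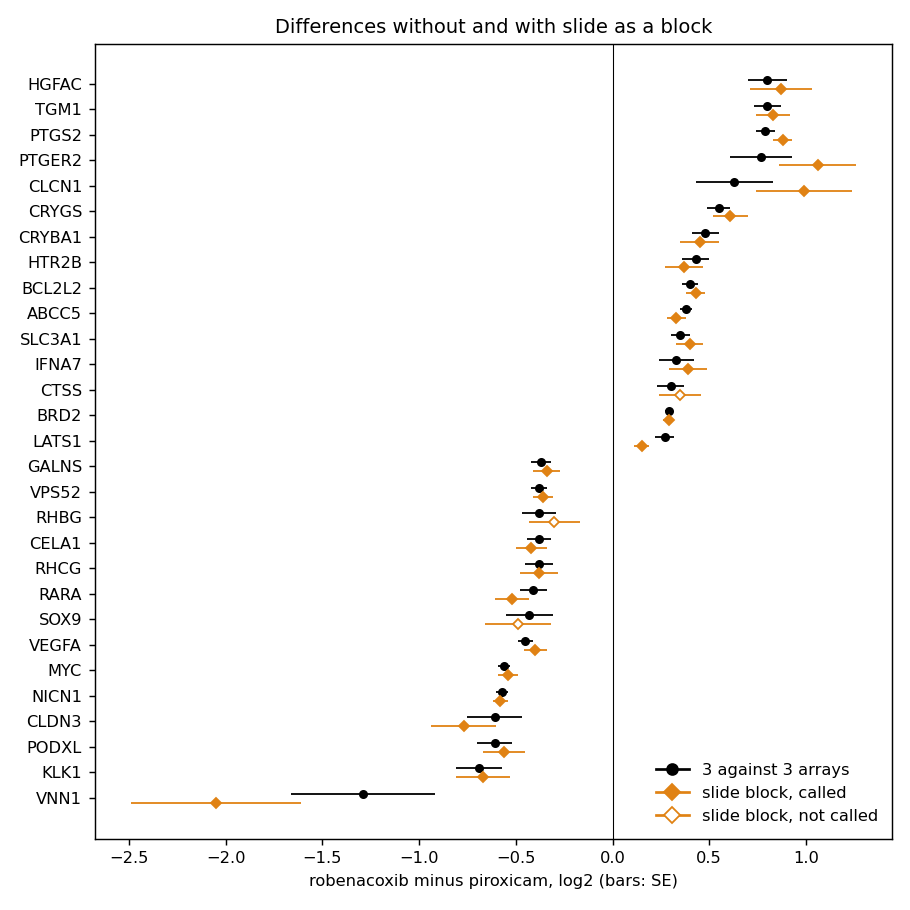
Difference between robenacoxib and piroxicam on the log2 scale, with its SE as a bar, for 29 genes, those of the plot of array values. Black marks the fit reported in the text, 3 against 3 arrays with the spread estimated from all 12 arrays. Orange marks the fit with slide as a block, whose difference rests on the 3 robenacoxib arrays and piroxicam 3. All differences keep their sign, which the block could not change, as these genes were chosen without overlap between the drugs. The open symbols mark the genes not called with the block: CTSS, RHBG and SOX9.

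Nuclear receptors had 4 tested members, 2 called higher and 2 lower, against 27.2% called of all probes, and for RARA and NR4A1 the call did not hold in every fit. PPARD, a lipid-sensing receptor, was at -0.42, -0.35 and -0.31 with piroxicam and at -0.58, -0.64 and -0.70 with robenacoxib. Robenacoxib arrays stood around the untreated mean of -0.66, and 2 of 2 probes were lower, the brighter by -0.28 (SE 0.04, adjusted p = 6.56e-04). RARA, a retinoic acid receptor, was at -2.41, -2.31 and -2.19 against -2.84, -2.73 and -2.59 on its brighter probe. That difference was -0.41 (SE 0.07, adjusted p = 0.00258), but the dimmer probe gave 0.33 (adjusted p = 0.467) and the mean of both -0.04 (adjusted p = 0.861). ESRRA, an orphan receptor of energy metabolism chosen after its values were seen, was higher by 0.16 (SE 0.02, adjusted p = 6.35e-04). NR4A1, also higher, is described above.

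Lysosomal genes were the longest list, with 20 tested members, of which 3 were called higher and 6 lower. Their median was -0.09 as scaled here and 0.04 with spiked-in scaling. Over all probes 13.7% were called higher and 13.5% lower. GALNS, a sulfatase that degrades keratan and chondroitin sulfate, was at -2.50, -2.51 and -2.55 with piroxicam and at -2.82, -2.97 and -2.88 with robenacoxib. The piroxicam arrays stood at the untreated -2.49 ± 0.04, and the difference was -0.37 (SE 0.05, adjusted p = 4.05e-04).

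ARSA, the sulfatase of sulfatides, was lower by -0.18 (SE 0.03, adjusted p = 0.00128), and stood at -0.05 (adjusted p = 0.402) with spiked-in scaling. NPC1, which carries cholesterol out of the lysosome, was at 1.21, 1.25 and 1.20 against 1.0, 1.06 and 1.10 (difference -0.17, SE 0.04, adjusted p = 0.00641). It had a p of 0.0658 with the block, stood at -0.04 (adjusted p = 0.62) with spiked-in scaling, and 1 of its 2 probes was called. CTSS (cathepsin S), a protease that also trims class II antigen chains, was higher by 0.30 (SE 0.07, adjusted p = 0.0132), with a p of 0.0646 under the block and of 0.0773 and 0.077 after normexp (0.28 and 0.13). With slide as a block, 0 lysosomal genes were called higher and 4 lower, against 10.3% and 8.04% of all probes in that fit.

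Genes beside the class II region were called on both sides. BRD2, a bromodomain protein that reads acetylated histones, was at 1.16, 1.16 and 1.15 with piroxicam and at 1.47, 1.44 and 1.43 with robenacoxib. Piroxicam arrays lay well under the untreated 1.57 ± 0.02, and the difference was 0.29 (SE 0.02, adjusted p = 3.08e-05), with 2 of 3 probes called. VPS52, which tethers vesicles to the Golgi, was at -0.56, -0.53 and -0.57 against -0.88, -0.93 and -0.97 on its brightest probe, lower by -0.38 (SE 0.04, adjusted p = 1.0e-04). Its probes disagree: another of the 4 was called higher by 0.20, and their mean differed by 0.02 (adjusted p = 0.841). DLA-DMA, a chaperone of class II loading, was lower by -0.18 (adjusted p = 0.0357), a call lost without robenacoxib 1 or 2 or piroxicam 1 or 3 (-0.19 to -0.14, adjusted p = 0.072 to 0.118), after normexp (-0.12 and -0.19), with spiked-in scaling (-0.05) and in the authors' values (-0.21), at adjusted p of 0.319, 0.0505, 0.605 and 0.0572. Of 15 tested genes of the region, 1 was called higher and 4 lower, against 27.2% called of all probes. Their median was -0.12 as scaled here and 0.01 with spiked-in scaling.

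RAB GTPases direct vesicles between compartments. RAB5A, of early endosomes, was at -0.60, -0.67 and -0.65 against -0.37, -0.45 and -0.43, higher with robenacoxib by 0.22 (SE 0.03, adjusted p = 5.07e-04) and on 2 of 2 probes. RAB22A, also of endosomes, was higher by 0.15 (adjusted p = 0.00917), but the call was lost after normexp (0.13 and 0.07) and in the authors' values (0.08), at adjusted p of 0.147, 0.278 and 0.241. RAB8A, of traffic to the surface, was lower by -0.23 (SE 0.05, adjusted p = 0.00991), with a p of 0.187 under the block (-0.15). It was also lost after normexp (-0.07 and -0.15), with spiked-in scaling (-0.09) and in the authors' values (-0.18), at adjusted p of 0.496, 0.0861, 0.193 and 0.0869. Together with RHOA, called lower, 2 of 12 were higher and 2 lower, against 27.2% called of all probes, with a median of 0.06.

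Of 16 tested genes for translocation into the endoplasmic reticulum, 3 were called higher and 1 lower, all by 0.15 or less. Of all probes 27.2% were called. With slide as a block limma called 0 of the 16 in either direction, against 18.3% of all probes, with 3 at an unadjusted p below 0.05. SRP72, a subunit of the signal recognition particle, was the largest, at 0.15 (SE 0.04, adjusted p = 0.0154), with a p of 0.052 without piroxicam 3, 0.062 under the block and 0.119 after normexp with the 75th percentile. SRP68, its partner in the particle, was higher by 0.12 (adjusted p = 0.0436), with a p of 0.21 under the block, and kept the call only without robenacoxib 3 among the 6 fits that leave out 1 array. SPCS2, a subunit of the signal peptidase, lost its call in all 6 (-0.11 to -0.08, adjusted p = 0.0624 to 0.134) and under the block (-0.12, adjusted p = 0.142).

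Among drug pumps, ABCC1, which exports glutathione conjugates, was at -0.41, -0.43 and -0.40 with piroxicam and at -0.63, -0.61 and -0.57 with robenacoxib. It was lower with robenacoxib by -0.19 (SE 0.04, adjusted p = 0.005), with a p of 0.053 under the block (-0.20) and -0.06 (adjusted p = 0.37) with spiked-in scaling. After normexp it stood at -0.08 and -0.09, and in the authors' values at -0.09, not called (adjusted p = 0.298, 0.181 and 0.188). ABCB1, the P-glycoprotein pump, was higher by 0.13 (adjusted p = 0.0387) on 2 of 2 probes, with a p of 0.219 under the block (0.12) and of 0.0601 with slide as a random block. The call was also lost after normexp (0.09 and 0.12) and in the authors' values (0.12), at adjusted p of 0.238, 0.0635 and 0.0664, while the mean of both probes gave 0.37 (adjusted p = 3.52e-05). This call held only without robenacoxib 2 among the 6 fits that leave out 1 array, the others giving 0.09 to 0.13 at adjusted p of 0.0674 to 0.115. Counting ABCC5, 2 of 4 tested pumps were higher and 1 lower, against 27.2% called of all probes.

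Of 11 tested drug and steroid enzymes, 1 was called higher and 1 lower, against 27.2% called of all probes. Their median was -0.13 as scaled here and 0.00 with spiked-in scaling. TPMT, which inactivates thiopurines, was at 1.12, 1.09 and 1.17 against 0.95, 0.98 and 0.95 (difference -0.17, SE 0.03, adjusted p = 0.00124), and at -0.03 (adjusted p = 0.542) with spiked-in scaling, and had a p of 0.054 and 0.0551 after normexp. HSD17B14, a hydroxysteroid dehydrogenase, was higher by 0.14 (adjusted p = 0.0151), with a p of 0.0813 under the block. It was not called without robenacoxib 2, piroxicam 2 or piroxicam 3 (0.12 to 0.13, adjusted p = 0.0502 to 0.0568), after normexp (0.09 and 0.05) or in the authors' values (0.06), at adjusted p of 0.365, 0.532 and 0.537. CYP3A12, a canine cytochrome P450, differed by 0.30 (0.06 to 0.54, adjusted p = 0.0636), and was called with the block (0.42) and without piroxicam 2 (0.40, adjusted p = 0.025). It was also called with quantile normalization (0.30), spiked-in scaling (0.43), a random slide block (0.34) and array weights (0.33). The adjusted p there was 0.00945, 0.00939, 0.0455 and 0.0204, and the remaining fits did not call CYP3A12.

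Antioxidant and metal genes had 10 tested members with 0 called higher and 1 lower, against 27.2% called of all probes. CAT (catalase) was at 1.83, 1.84 and 1.79 with piroxicam and at 1.62, 1.64 and 1.62 with robenacoxib, both under the untreated 1.87 ± 0.02. Its difference was -0.20 (SE 0.02, adjusted p = 2.39e-04), and -0.07 (adjusted p = 0.261) with spiked-in scaling. The ferritin light chain FTL differed by 0.06 (-0.04 to 0.15) and the metallothionein MT1E by -0.01 (-0.07 to 0.05). With spiked-in scaling both were called higher, at 0.19 and 0.12 (adjusted p = 0.0227 and 0.0463).

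Inflammatory cytokines were tested in 12 genes, and limma called 0 higher or lower, with 2 at an unadjusted p below 0.05. Of all probes 27.2% were called. CXCL8 (interleukin 8) was at -0.51, -0.46 and -0.53 with piroxicam and at -0.62, -0.52 and -0.58 with robenacoxib. The groups overlapped, both lay above the untreated -0.99 ± 0.02, and the difference was -0.07 (-0.15 to 0.00), with 0 of 4 probes called. TNF, another inflammatory cytokine, differed by -0.15 (-0.42 to 0.12). In the interferon list, MX1, an antiviral GTPase, was at -1.81, -1.76 and -1.79 against -1.58, -1.61 and -1.59, higher with robenacoxib by 0.20 (SE 0.02, adjusted p = 4.19e-04) and on 2 of 2 probes. It was the 1 called of 5 tested genes, against 27.2% called of all probes. The untreated arrays, at -1.48 ± 0.03, lay above both drugs.

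Of 7 tested melanocyte and pigment genes, 2 were called higher, KITLG and MITF, and 0 lower, against 27.2% called of all probes. Their median was 0.08. MITF, the master transcription factor of melanocytes, was at -0.52, -0.53 and -0.58 against -0.46, -0.46 and -0.47. Its difference of 0.08 (SE 0.03, adjusted p = 0.0493) lost the call in each of the 6 fits that leave out 1 array (0.06 to 0.10, adjusted p = 0.0587 to 0.156), and its other probe differed by 0.04. The block for slide gave 0.12 (adjusted p = 0.0525), and the call was also lost after normexp, in the authors' values and with array weights (0.07 to 0.09).

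Among 13 tested matrix genes, 3 were called lower and 0 higher, against 27.2% called of all probes. Their median was -0.12 as scaled here and 0.01 with spiked-in scaling. MMP3, a stromelysin, was at -0.85, -0.81 and -0.92 against -1.04, -1.07 and -1.03 (difference -0.19, SE 0.04, adjusted p = 0.0113), with a p of 0.0882 under the block (-0.13) and -0.06 (adjusted p = 0.453) with spiked-in scaling. TIMP1, an inhibitor of such proteases, was lower by -0.12 (adjusted p = 0.035), a call lost without robenacoxib 1 or 2 or piroxicam 1 or 3 (-0.13 to -0.09, adjusted p = 0.0607 to 0.116). COL1A1 was lower by -0.12 on 1 of 4 probes, and by -0.10 under the block, where it was not called. The call was also lost after normexp (-0.08 and -0.05), in the authors' values (-0.04) and on the mean of its probes (-0.10). The adjusted p there was 0.247, 0.457, 0.515 and 0.0744.

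Kinase signalling genes gave 2 higher and 1 lower of 10 tested, against 27.2% called of all probes. FGFR2, a receptor of fibroblast growth factors, was at -2.63, -2.61 and -2.66 with piroxicam and at -2.89, -2.90 and -2.90 with robenacoxib, lower by -0.26 (SE 0.04, adjusted p = 0.00123). The call was lost after normexp (-0.19, adjusted p = 0.0566) and with spiked-in scaling (-0.13, adjusted p = 0.0752). PRKCD, a protein kinase C, was higher by 0.10 (adjusted p = 0.0296), with a p of 0.124 under the block. It stood at 0.02 and 0.02 after normexp and at 0.03 in the authors' values, not called (adjusted p = 0.778, 0.798 and 0.746). Its call held only without robenacoxib 3 among the 6 fits that leave out 1 array (otherwise 0.08 to 0.11, adjusted p = 0.0542 to 0.104).

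The lists of other cell type markers, ribosomal genes and housekeeping genes were short. Their counts stand against 27.2% called of all probes. FCGR1A, a receptor for antibodies on myeloid cells, was lower by -0.29 (SE 0.06, adjusted p = 0.00592), with a p of 0.111 under the block and of 0.363 after normexp with the 75th percentile (-0.11), and the other 5 tested leukocyte markers were not called. None of 3 endothelial markers, 3 ribosomal genes or 4 cytoskeletal and housekeeping genes was called by limma or had an unadjusted p below 0.05 (0 of each). Of 13 calcium and ion channel genes, CLCN1 was higher and GJA1 lower, against 27.2% called of all probes.

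**Figure D4:**
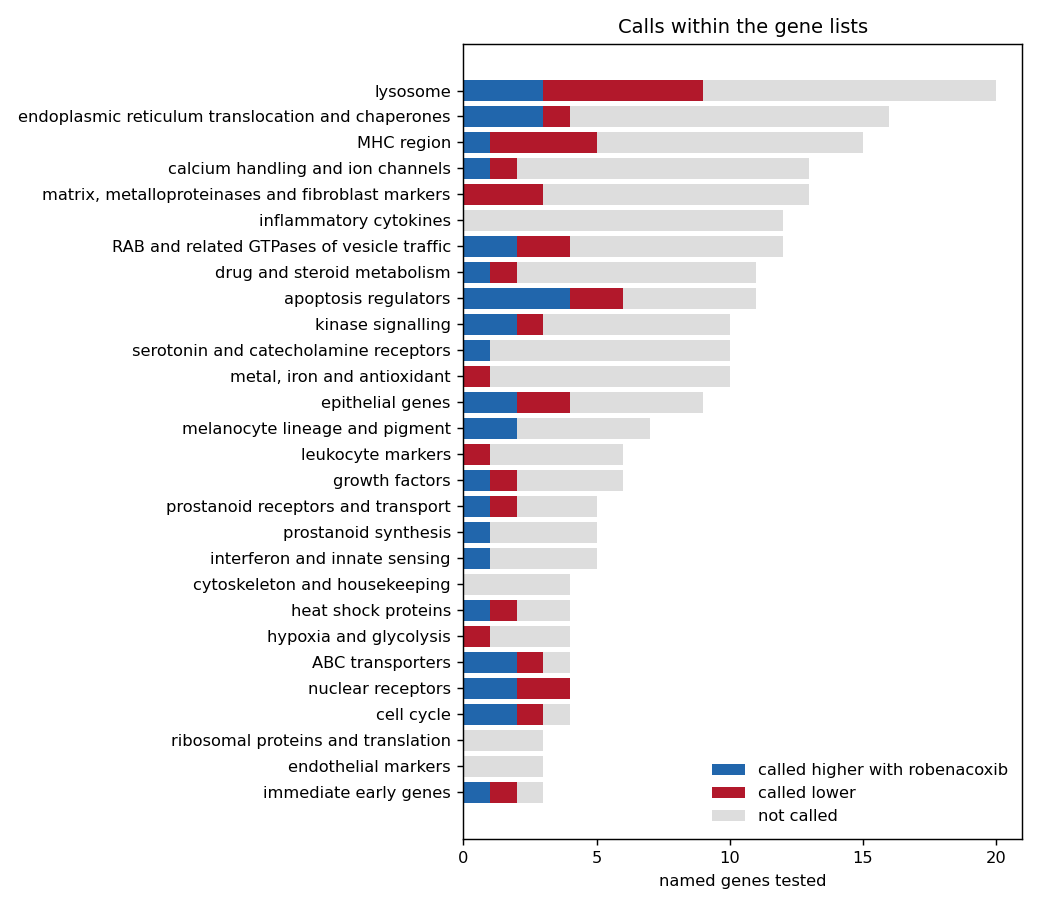
Number of named genes tested in each of 28 gene lists, split into those called higher with robenacoxib (blue), called lower (red) and not called (grey). Over all tested probes 27.2% were called, and the nuclear receptors are the list in which all 4 tested genes were.

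The probe with the largest called difference among those above background on all 6 arrays has no name here. This probe, A_11_P0000014469, was at -3.08, -3.11 and -3.11 with piroxicam and at -0.41, -0.50 and -0.54 with robenacoxib. The untreated arrays, at -3.15 ± 0.01, and the carprofen arrays, at -3.25 ± 0.06, stood with piroxicam. The difference was 2.62 (SE 0.04, 6.14-fold, adjusted p = 2.62e-09), 2.63 under the block for slide (adjusted p = 6.26e-06), and 2.29 to 2.75 over all fits. A second unnamed probe, A_11_P173198, was 2.79-fold higher with robenacoxib (1.48, SE 0.14, adjusted p = 7.94e-05), at -6.09, -5.81 and -6.10 against -4.45, -4.46 and -4.64. It ranged from 0.62 to 1.61 over all fits.

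In the other direction, probe A_11_P0000041134 was at -4.21, -4.20 and -4.10 with piroxicam and at -6.10, -5.70 and -5.99 with robenacoxib, a difference of -1.76 (SE 0.11, 3.39-fold, adjusted p = 8.29e-06). It ranged from -1.88 to -0.68 over all fits. Probe A_11_P0000026566 was at -1.88, -1.77 and -1.90 against -3.19, -3.35 and -3.27, with untreated arrays at -3.04 ± 0.18 near robenacoxib. Its difference was -1.42 (SE 0.09, 2.68-fold, adjusted p = 1.13e-05), and -1.46 to -1.04 over all fits. These 4 probes were chosen for the size of their difference.

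Detection itself was unequal. Probes above background on all 3 robenacoxib arrays and on 0 piroxicam arrays numbered 326, and the reverse was seen for 1 probe. The share of spots above background was also lower with piroxicam (70.3%, 72.8% and 66.2%) than with robenacoxib (74.4%, 73.1% and 75.9%), and its part in these numbers was not tested. The 3 named genes among the 326 were CCL5, NCAM1 and TBXT, none of them called. Their differences were 0.01, 0.09 and 1.08 (adjusted p = 0.285 for TBXT), and the TBXT arrays of the 2 drugs overlapped.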

How the data were processed

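Spot intensity was deposited by the authors as scanner files of 12 arrays, quantified by Feature Extraction 10.7.3.1 (protocol GE1_107_Sep09, per the file headers), background-subtracted and not normalized between arrays. A table of the authors' deposited log2 values served as an alternative. The submitters' processing notes name limma 3.24.15, every column has a median of 7.67, the scale was inferred from its range, while how it was centred is not given in the sources used here. From log2 of each processed signal, the 75th percentile of that array was subtracted (R 4.3.3, limma 3.58.1, and the package data.table at version 1.17.8). Control spots and flagged spots (4 to 28 on each of the 6 arrays) were left out, and 37 tested probes lacked a value on 1 of the 6 arrays or more. No spot was saturated (0). One model was fitted to all 12 arrays (lmFit and eBayes, 8 residual degrees of freedom), the groups sharing 1 spread per probe. It was checked on simulated data with independent noise and no slide effect. That check therefore does not bear on the partial coincidence of slide and drug. Gene names, and nothing else, were taken from RefSeq's annotation of UU_Cfam_GSD_1.0. The brightest tested probe on average stands for its gene.

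The named genes are the 15 largest called without overlap in each direction, up to 3 called members of each of 28 lists, 31 genes fixed by name, and the 2 most extreme unnamed probes in each direction. Some genes that the rule names are not reported here. HSPA1A and HSPA5, fixed by name, have no named probe. The members, lists and rule were chosen with earlier results of these data known. Slide and scan coincide and cannot be told apart. Precision is limited by the number of arrays. Alternatives covered scaling, background correction, filters, slide, replicate number, array weights and omission of each array.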

Additional observations from a re-analysis of the deposited data

How the results depend on the processing

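With 4381 probes higher and 4321 lower as reported, and 53 and 97 named genes, normexp (offset 50, on median signals, chosen after seeing the data because the files used hold no mean signals) with the 75th percentile gave 2581 and 2091 probes and 31 and 42 genes. Normexp with quantile normalization gave 35 and 61 genes, the authors' deposited values 33 and 55, and the 6 arrays alone 35 genes higher. Spiked-in scaling gave 10691 and 1136 probes and 161 and 30 genes. Slide as a block gave 2572 probes and 64 genes lower, and slide 3 alone 0 for all 4 counts in limma, with 7883 probes at an unadjusted p below 0.05 and 2 residual degrees of freedom. The cause was not tested beyond those sample and degree-of-freedom numbers. Quantile normalization, no filter, all-6 detection, a random slide block and array weights stayed within 1.5 times the reported counts. Omitting 1 array gave 3423 to 4016 probes higher, 3367 to 3708 lower, 39 to 49 genes higher and 74 to 90 lower. Same-numbered arrays of the 2 drugs had correlations of -0.17, -0.21 and -0.08 between their deviations from the group means. Arrays of unlike number had -0.09 to 0.22. Deviations within a group of 3 sum to 0, so these values cannot settle whether the replicates were paired. The replicate block gave 3792 and 3672 probes. Of 67 called genes named by the rule, 26 (16 higher, 10 lower) kept the call in every fit except slide 3 alone, and 41 lost it in at least 1. Reversed were COL1A1 (0.01), TIMP1 (0.01) and SPCS2 (0.03) with spiked-in scaling, where MT1E reached 0.12, and VPS52 on the mean of its probes (0.02). PTGER2, HGFAC and VNN1, all dim, moved by over 1.5 times with background correction, as did brighter genes such as ABCC1 and PRKCD, and the cause was not tested. Normexp on mean signals was not run.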
